A study of Homo sapiens with 8 samples.

Results

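The 10 genes described here encode early-response transcription factors: FOS, FOSB, FOSL1 and FOSL2 of the FOS family, JUN, JUNB and JUND of the JUN family, the zinc-finger factors EGR1 and EGR3, and ATF3. They were chosen by name, as the rows of the deposited count table that carry these symbols, 10 of 57445 gene rows. The test covered 15806 genes, those averaging 10 counts or more, and all 10 were among them. FOS and JUN proteins pair through leucine zippers to form AP-1, a dimer that binds DNA near genes of growth, invasion and inflammation, and only the JUN proteins can also pair with themselves. EGR1 and EGR3 bind GC-rich sites, and ATF3 pairs with JUN proteins and often acts as a repressor of stress-induced genes. Transcripts of most of these genes are made within minutes of a signal through MAP kinases and are short-lived, while FOSL1, FOSL2 and JUND are commonly present for longer.

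The transcripts came from MDA231-BrM2, a derivative of the human breast cancer line MDA-MB-231 selected for metastasis to the brain. Ribosomes of the carcinoma cells carry a GFP tag, and anti-GFP beads recover them with the RNA being translated (TRAP), so that the carcinoma cells can be read in a mixed lysate. The 8 libraries form 4 groups of 2. Cells with Cx43 hairpin 2, cells with Cx43 hairpin 1 and cells with a control hairpin were each grown with astrocytes, and control-hairpin cells were also grown alone. Cx43 (connexin 43, encoded by GJA1) is a gap junction protein through which carcinoma cells and astrocytes can connect. Cocultures were kept for 24 h at a ratio of 1 astrocyte to a carcinoma cell, and the species of the astrocytes is not given in the sources used here. All groups share the same line, each carries a hairpin, and there were no Cx43-depleted cells without astrocytes, so an action of the hairpins that does not depend on astrocytes cannot be told apart from one that does.

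Gene reads came to 38219702 to 48997555 per library. GJA1, the targeted gene, was at 31.7 and 33.8 CPM (counts scaled to a common number of gene reads, with TMM factors) with hairpin 2, at 27.8 CPM in both hairpin 1 libraries, at 65.9 and 64.6 CPM in control cocultures and at 51.1 and 46.3 CPM in control cells alone. Its log2 fold change over both hairpins against the control coculture was -1.11. The defining microglial genes AIF1, TYROBP and C1QA had no read in any of the 8 libraries, but 2 of the 9 listed microglial genes were read well enough to be tested. LAPTM5, with 3608 to 6504 reads, and CSF1R, with 27 to 62, both rose in the control coculture against control cells alone (log2 0.77 and 1.16, edgeR, adjusted p = 0.000133 and 0.00852). The call of LAPTM5 held in every alternative, and that of CSF1R ended without control cells alone 1 or 2 or control coculture 1. Over both hairpins against the control coculture neither was called (-0.02 and -0.22). The summed level of the microglial list was 149.3 to 149.6 CPM with hairpin 2, 129.4 to 140.7 CPM with hairpin 1, 143.2 to 145.1 CPM in control cocultures and 83.8 to 85.3 CPM in control cells alone. Of the astrocyte genes AQP4 had 2 to 7 reads, S100B 0 to 2 and GJB6 0 to 1. Other genes on the list of 15 astrocyte markers, such as GFAP with 375 to 712 reads, were read in the cells grown alone too. The summed level of that list was 241.3 to 246.7 CPM with hairpin 2, 242.4 to 254.2 CPM with hairpin 1, 290.7 to 294.8 CPM in control cocultures and 237.6 to 240.6 CPM in control cells alone. Of these markers 10 were tested, of which 6 rose in the control coculture against control cells alone, where 8.74% of all tested genes rose, and 4 fell over both hairpins against the control coculture, where 5.85% fell. With hairpin 2 alone 1 was called lower, where 3.20% of all tested genes were. With hairpin 1 alone 4 were lower, where 4.73% of all tested genes were, and 1 was higher, where 488 of all 15806 were. With the replicate number as a block NTRK2 and SOX9 were no longer called higher, nor GPM6B, GLUL and SLC1A3 lower (edgeR, adjusted p from 0.0535 to 0.0961). A list of 7 neuronal genes summed to 19.2 to 19.9 CPM with hairpin 2, 18.4 to 19.2 CPM with hairpin 1, 26.0 to 26.8 CPM in control cocultures and 19.4 to 20.2 CPM in control cells alone. Of 4 tested, MAP2 was called, higher in the control coculture (1.02) and lower over both hairpins (-0.82), in every alternative. Of 8 listed carcinoma-line markers, 3 rose and 1 fell in the control coculture, where 8.74% of all tested genes rose and 2.93% fell. Over both hairpins 4 of them fell, where 5.85% of all tested genes did. Whether astrocytes also express these markers was not tested. VIM (0.60 and then -0.58) and KRT8 (0.45 and then -0.44) were called in both comparisons. KRT7 also rose in the control coculture (0.64), and EPCAM fell there (-0.46). KRT19 (-0.83) and KRT18 (-0.25) also fell over both hairpins. With the replicate number as a block the calls of EPCAM and KRT18 ended (edgeR, adjusted p = 0.0731 and 0.0703). The list of carcinoma-line markers summed to 4204 to 4485 CPM in control cocultures and 3635 to 3991 CPM in control cells alone. With hairpin 2 that sum was 3433 to 3448 CPM, and with hairpin 1 it was 3533 to 3973 CPM. JUNB, described below, was highest in control cocultures, as were the astrocyte, neuronal and carcinoma-line sums, VIM and KRT8, while EPCAM was not. The part of other cells' RNA in the results was not tested. A summed list of 8 fibroblast markers, led by the collagen gene COL1A1, was at 515.8 to 530.3 CPM with hairpin 2, 463.4 to 543.4 CPM with hairpin 1, 789.2 to 843.7 CPM in control cocultures and 708.3 to 1154 CPM in control cells alone. Fewer cells of a type and less RNA per cell cannot be told apart in such pooled lysates.

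The promoters of 4 genes with a call between groups are shown so that their make-up can be seen beside the values of their transcripts. Each is the 250 bases before the RefSeq gene start in GRCh38.p14, on the plus strand: JUNB at chr19:12791236-12791485, FOSL2 at chr2:28392608-28392857, FOS at chr14:75278578-75278827 and EGR1 at chr5:138465229-138465478. Capitals mark matches, on either strand, to the letters of the AP-1 site (TGANTCA), the cyclic AMP response element or its core (TGACGT), the EGR site (GCGNGGGCG) and the CArG box bound by serum response factor.
JUNB promoter: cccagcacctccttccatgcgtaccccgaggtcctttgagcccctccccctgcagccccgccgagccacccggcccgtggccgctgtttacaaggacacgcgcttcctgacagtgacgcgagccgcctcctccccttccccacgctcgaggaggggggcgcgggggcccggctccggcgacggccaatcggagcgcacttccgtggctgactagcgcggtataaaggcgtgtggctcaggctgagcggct
FOSL2 promoter: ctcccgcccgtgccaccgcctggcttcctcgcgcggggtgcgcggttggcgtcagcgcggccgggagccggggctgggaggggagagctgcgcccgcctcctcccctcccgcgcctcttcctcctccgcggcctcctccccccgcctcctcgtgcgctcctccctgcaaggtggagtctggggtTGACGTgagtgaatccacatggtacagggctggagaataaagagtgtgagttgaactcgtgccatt
FOS promoter: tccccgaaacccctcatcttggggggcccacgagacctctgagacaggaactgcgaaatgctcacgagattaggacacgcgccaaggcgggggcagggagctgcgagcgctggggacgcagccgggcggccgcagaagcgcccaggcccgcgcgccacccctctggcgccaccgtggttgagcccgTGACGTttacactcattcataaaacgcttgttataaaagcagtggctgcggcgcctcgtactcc
EGR1 promoter: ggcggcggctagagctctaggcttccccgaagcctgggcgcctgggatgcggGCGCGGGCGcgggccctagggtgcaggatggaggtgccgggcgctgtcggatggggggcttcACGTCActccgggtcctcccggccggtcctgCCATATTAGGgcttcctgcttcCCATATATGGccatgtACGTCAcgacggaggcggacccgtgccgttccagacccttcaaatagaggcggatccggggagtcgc

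Matches are descriptions of letters, not of occupied sites. Windows were available for 8 of the genes, not for FOSL1 or EGR3, and there were 9 windows in all because ATF3 has more than 1 start. Sequence further upstream than 250 bases was not searched. Among these windows that of EGR1 alone held CArG boxes, 2 of them at 105 and 83 bases before its start. A CArG box occurs in 1.16% of all 35114 promoter windows. The element core TGACGT, a motif added after the sequences had been read, was present in 5 of the 9 windows, those of FOS, FOSB, FOSL2, JUND and EGR1, against 7.10% of all windows. In FOS, FOSB and FOSL2 it lay at nearly the same distance, 64, 60 and 66 bases before the start. The full palindrome TGACGTCA was found in JUND alone among these windows (1.65% of all), and the EGR site in EGR1 alone (8.41% of all). No window held the AP-1 letters TGANTCA (6.57% of all) or the interferon-stimulated response element (3.02% of all), and a loose kappa B pattern, present in 5 of the 9, also occurred in 54.4% of all windows. The JUNB window had no match to any of the 7 patterns searched.

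Levels differed far more between the genes than between the conditions. Per kb of exon, FOSL1, the FOS relative typical of invasive mesenchymal breast lines, was highest in every group, with a mean of 352 CPM per kb in control cocultures. JUND followed at 123 CPM per kb and JUN at 65.3 CPM per kb. JUNB had 50 CPM per kb, EGR1 22.0 and FOSL2 20.4 CPM per kb in the same group. ATF3 (2.82 CPM per kb), FOS (1.99), FOSB (0.831) and EGR3 (0.0912) were low in it. This order held in all 4 groups but for EGR1 and FOSL2, and neighbouring genes did not overlap between libraries of a group except for this pair. EGR1 and FOSL2 overlapped in control cocultures. FOSL2 lay above EGR1 with hairpin 2 (means of 19.2 and 15.6 CPM per kb) and with hairpin 1 (21.1 and 16.8), whereas EGR1 lay above FOSL2 in control cells alone (19.9 and 15.4). EGR3 rested on 11 to 26 reads per library, and its exons overlap the antisense transcript AC055854.1 by 164 bases.

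**Figure D1:**
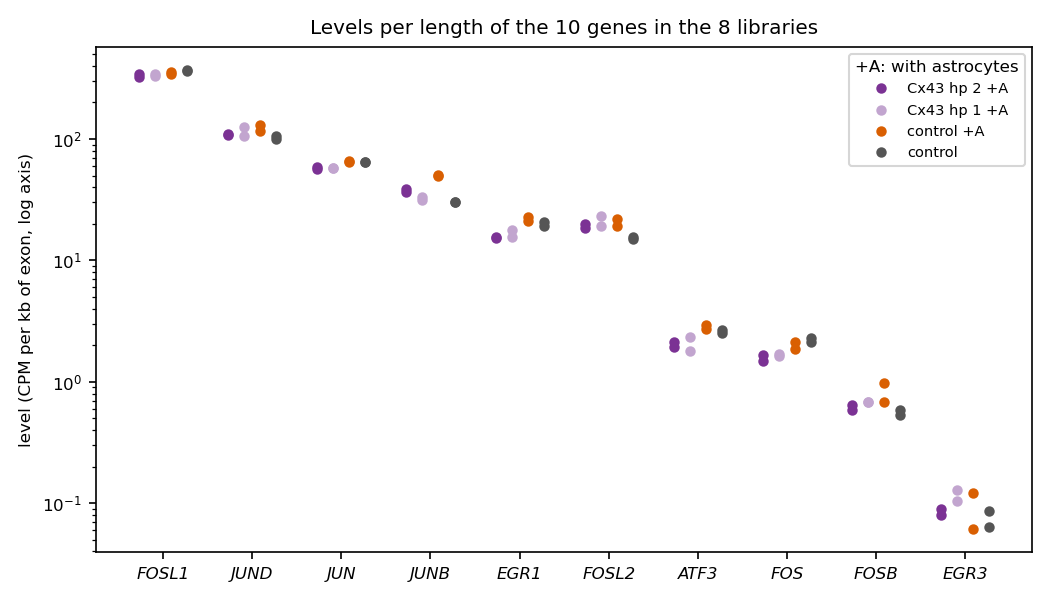
Level of each of the 10 genes in CPM per kb of exon (log axis), with a point per library and the 4 groups side by side within each gene. FOSL1 lies between 325 and 370 in all libraries and EGR3 between 0.0608 and 0.129, and the spread between conditions within a gene is small beside that range.

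Across the 4 groups JUNB varied most in relation to its replicates. The highest and lowest of its group means differed by 0.72 on the log2 scale, while its replicates differed by at most 0.09, and 89.6% of the tested genes had a smaller range of group means. FOSB (0.54), EGR1 (0.50), FOS (0.49), ATF3 (0.46) and FOSL2 (0.45) had intermediate ranges, against a median of 0.31 over all tested genes. JUND (0.24), JUN (0.18) and FOSL1 (0.14) had smaller ranges than that median. EGR3 had a range of 0.58, but its replicates in control cocultures differed by 0.90. The library values behind these ranges are plotted by gene.

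**Figure D2:**
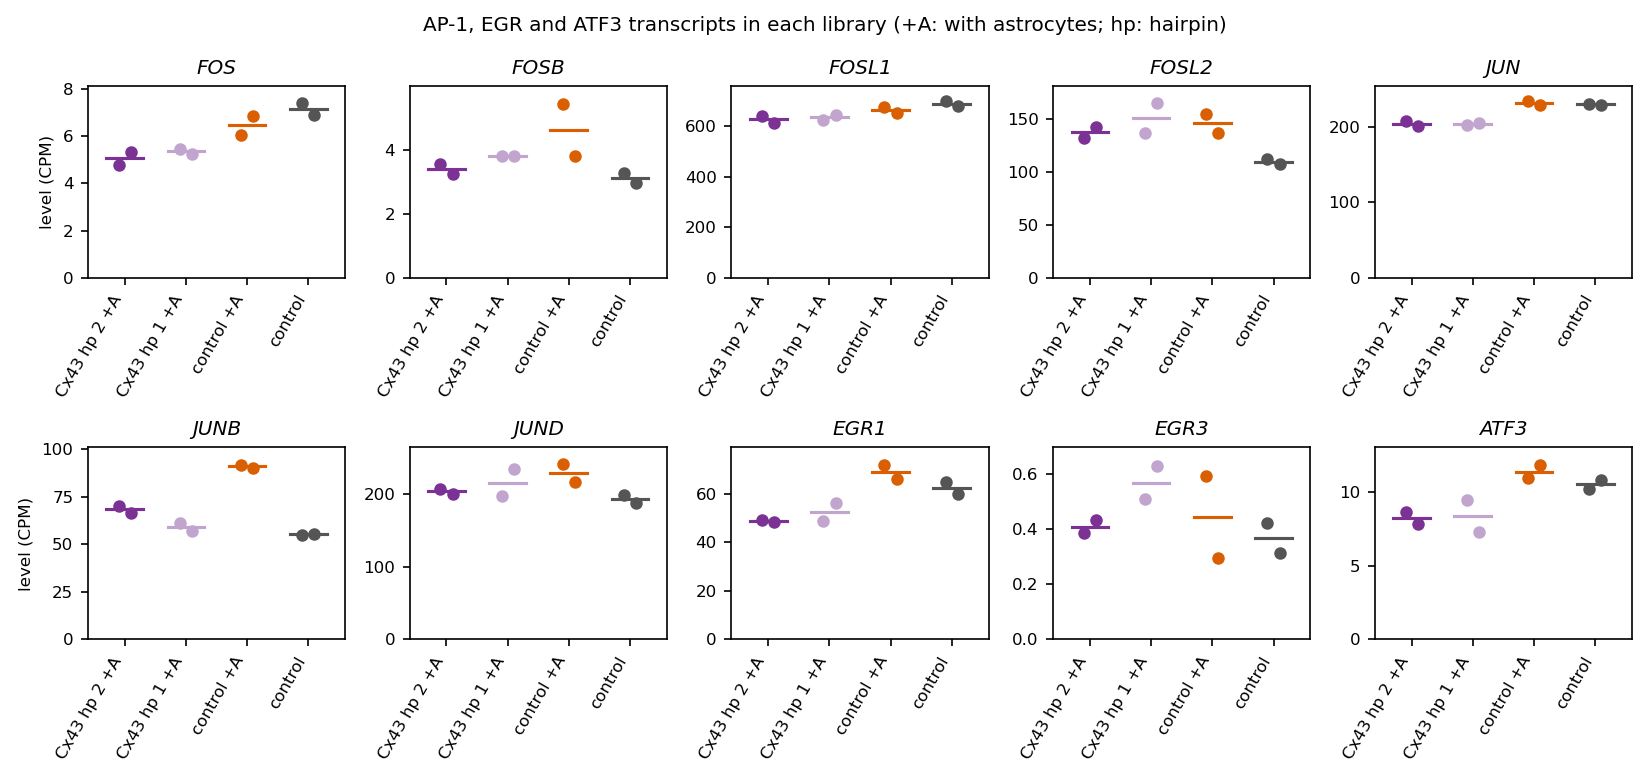
Level (CPM, linear axes that start at 0) of each gene in each library, with points for libraries and a bar at the mean of the 2 libraries of a group. JUNB is near 90 CPM in both control cocultures and between 55.0 and 70.3 CPM in the other 6 libraries, and EGR1 is at 56.4 CPM or less in all 4 libraries with a Cx43 hairpin.

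Control cells with astrocytes were set against control cells alone to ask which of these transcripts differ when astrocytes are present. JUNB and FOSL2 rose, and the other 8 did not pass the test. That is 2 of 10 genes higher at an adjusted p under 0.05, where 8.74% of all tested genes were called higher and 2.93% lower. The median log2 fold change of the 10 genes was 0.20, against -0.0026 over all tested genes. Libraries of the 2 groups did not overlap for 8 of the 10 genes, 6 of them higher and 2 lower, where 56.3% of all tested genes did not overlap. DESeq2 called 2 higher and 0 lower, and among all genes it called 1205 higher and 474 lower. At an unadjusted p under 0.05, 4 of the 10 genes were higher and 0 lower, but the share of all tested genes at that threshold was not counted.

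JUNB, a JUN protein that weakens JUN-driven growth in many cells and serves cytokine signalling, was at 91.6 and 90.3 CPM in control cocultures and at 55.0 and 55.6 CPM in control cells alone. The replicates of each group were close and the groups were far apart. The fold change was 1.65, a log2 value of 0.72 (SE 0.066, edgeR quasi-likelihood test, adjusted p = 0.000196), and it passed in all 15 alternative settings. The exons of JUNB overlap the antisense gene HOOK2 by 259 bases, and the library kit does not mark strand. HOOK2 had 445 to 610 reads per library and a log2 fold change of -0.05 (edgeR, adjusted p = 0.799).

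FOSL2, which encodes the FOS relative FRA-2, was at 155.5 and 136.7 CPM in control cocultures and at 112.4 and 107.3 CPM in control cells alone. Both cocultures were higher than both libraries of cells alone. Its log2 fold change was 0.41 (SE 0.10, edgeR, adjusted p = 0.0346). The call ended without control cells alone 1 or 2 (adjusted p = 0.119 and 0.163), without control coculture 1 (0.205), without hairpin 2 library 1 or 2 (0.0691 and 0.0696), and with the replicate number as a block (0.0765).

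FOSB, a FOS protein with a strong activation domain, was at 5.42 and 3.81 CPM in control cocultures and at 3.26 and 2.97 CPM in control cells alone. Its log2 difference of 0.57 had a wide error (SE 0.17, edgeR, adjusted p = 0.063), and 1 coculture library was much higher than the other. It passed the test without control coculture 2 (0.78, adjusted p = 0.0194) and with no count filter (0.56, adjusted p = 0.0036). JUND, at 241.3 and 215.7 CPM in control cocultures and at 198.4 and 186.8 CPM in control cells alone, had a log2 difference of 0.25 (adjusted p = 0.132). It passed without hairpin 1 library 1 or 2 (adjusted p = 0.0372 and 0.0379), which are not among the libraries compared.

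The classic early genes did not pass the test in this comparison. FOS was at 6.04 and 6.87 CPM in control cocultures and at 7.385 and 6.901 CPM in control cells alone, a log2 difference of -0.15 (95% interval -0.39 to 0.10, edgeR, adjusted p = 0.417). JUN was at 233.4 and 228.9 CPM in control cocultures and at 230.4 and 228.5 CPM in control cells alone, and its interval ran from -0.12 to 0.14. EGR1 was at 72.1 and 66.0 CPM in control cocultures and at 64.7 and 60.1 CPM in control cells alone, a difference of 0.15 with an interval from -0.05 to 0.34. None of these 3 intervals reached the size of the JUNB change. ATF3 (0.11, interval -0.18 to 0.39) and FOSL1 (-0.05, interval -0.20 to 0.09) also did not pass, and EGR3 had an interval from -0.55 to 1.13, too wide to place it.

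Cells with a Cx43 hairpin were then set against control cells, all with astrocytes, to ask how these transcripts differ when the cells hold less Cx43. JUNB, EGR1 and ATF3 fell, none rose, and 7 did not pass the test. In this comparison 3 of 10 genes were called lower, where 5.85% of all tested genes were called lower and 3.37% higher. The median log2 fold change of the 10 genes was -0.24, against -0.008 over all tested genes. All 4 libraries with a hairpin lay below both control cocultures for 6 of the 10 genes, where 34.6% of all tested genes did not overlap in either direction. DESeq2 called 3 lower and 0 higher, and among all genes it called 853 lower and 564 higher. At an unadjusted p under 0.05, 6 of the 10 genes were lower and 0 higher, but the share of all tested genes at that threshold was not counted.

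JUNB was at 70.3 and 66.4 CPM with hairpin 2, at 61.0 and 57.2 CPM with hairpin 1 and at 91.6 and 90.3 CPM in control cocultures. All 4 libraries with a Cx43 hairpin were below both control cocultures. Over both hairpins the log2 fold change was -0.52 (SE 0.056, edgeR, adjusted p = 0.000885), which passed in all 15 alternatives. With hairpin 1 alone it was -0.62 (adjusted p = 0.000873) and also passed in all 15. With hairpin 2 alone it was -0.41 (adjusted p = 0.0101), and this call ended without control coculture 1 or 2 (adjusted p = 0.0731 and 0.08) and without hairpin 2 library 1 or 2 (0.0811 and 0.166). HOOK2, which overlaps JUNB, had a log2 fold change of 0.11 over both hairpins (edgeR, adjusted p = 0.506).

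EGR1, a growth- and stress-induced activator, was at 49.3 and 48.3 CPM with hairpin 2, at 48.9 and 56.4 CPM with hairpin 1 and at 72.1 and 66.0 CPM in control cocultures. No library with a hairpin reached the level of a control library, with or without astrocytes. The log2 fold change over both hairpins was -0.45 (SE 0.074, edgeR, adjusted p = 0.0083). It did not pass without control coculture 1 (-0.38, adjusted p = 0.0753) or hairpin 2 library 2 (-0.44, adjusted p = 0.051). Against the control coculture EGR1 was lower with hairpin 2 (-0.50, adjusted p = 0.0153) and with hairpin 1 (-0.39, adjusted p = 0.0314), and these calls ended under 4 and 7 of the 15 alternatives, among them the replicate block (adjusted p = 0.0524 with hairpin 2 and 0.0803 with hairpin 1). The libraries behind these losses are control coculture 1 and both hairpin 2 libraries for hairpin 2. For hairpin 1 they are both control cocultures, both hairpin 2 libraries and control cells alone 1.

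ATF3 was at 8.675 and 7.865 CPM with hairpin 2, at 9.48 and 7.26 CPM with hairpin 1 and at 10.95 and 11.83 CPM in control cocultures. All libraries with a hairpin were lower than both control cocultures, and the 2 hairpin 1 libraries spanned the values of hairpin 2. Its log2 fold change was -0.45 (SE 0.11, edgeR, adjusted p = 0.038). The call ended in 8 of 15 alternatives, where the adjusted p ran from 0.0632 to 0.246. These were the replicate block, the fit to the compared groups only, and the fits without any 1 of the control cells alone, control coculture or hairpin 2 libraries. With either hairpin alone ATF3 did not pass (-0.46 with hairpin 2, adjusted p = 0.0891, and -0.44 with hairpin 1, adjusted p = 0.0696).

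The remaining members of the FOS and JUN families were near or below the control coculture. JUN, the main activating partner within AP-1, was at 207.0 and 201.2 CPM with hairpin 2, at 202.3 and 205.0 CPM with hairpin 1 and at 233.4 and 228.9 CPM in control cocultures. Its 4 hairpin libraries lay close together and under every control library, but the log2 difference of -0.18 (SE 0.051, edgeR, adjusted p = 0.06) did not pass. It passed when genes with a mean count under 50 were left out (adjusted p = 0.0434). FOS was at 4.795 and 5.342 CPM with hairpin 2, at 5.43 and 5.26 CPM with hairpin 1 and at 6.04 and 6.87 CPM in control cocultures, without overlap (-0.31, adjusted p = 0.0795). FOSB (-0.36, adjusted p = 0.153) and JUND (-0.13, adjusted p = 0.364) overlapped between the groups.

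FOSL2 and FOSL1 were not called in this comparison. FOSL2 was at 132.4 and 143.2 CPM with hairpin 2, at 136.7 and 165.2 CPM with hairpin 1 and at 155.5 and 136.7 CPM in control cocultures. The groups overlapped, and the log2 difference was -0.02 (95% interval -0.22 to 0.18, edgeR, adjusted p = 0.92). FOSL1 had a difference of -0.07 (interval -0.20 to 0.05, adjusted p = 0.456) at levels of 613.1 to 644.4 CPM with a hairpin and of 675.6 and 652.2 CPM in control cocultures. Whether these genes differ from JUNB in their response was not tested.

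**Figure D3:**
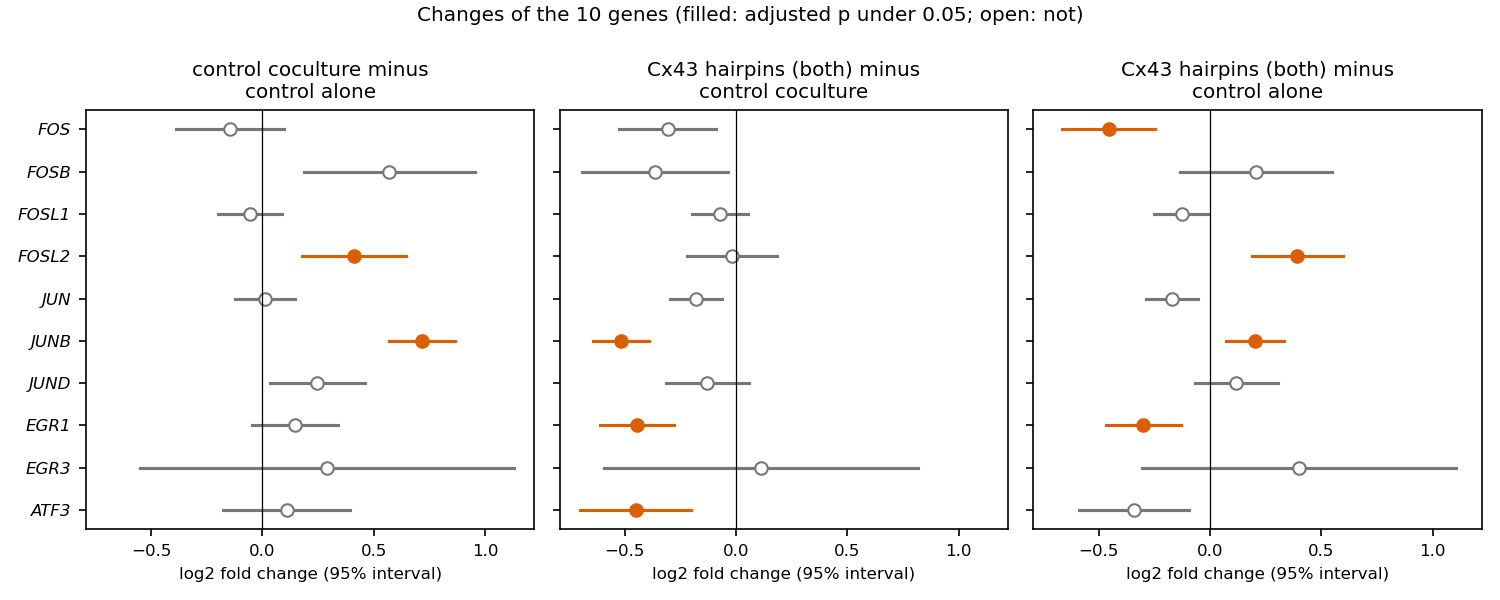
Log2 fold change with its 95% interval for the 10 genes in 3 comparisons, from the edgeR fit of all 8 libraries. Filled points have an adjusted p under 0.05: JUNB and FOSL2 (control coculture minus control alone), JUNB, EGR1 and ATF3 (both hairpins minus control coculture), and FOS, EGR1, JUNB and FOSL2 (both hairpins minus control alone).

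The hairpins were also set against each other. None of the 10 was called between hairpin 2 and hairpin 1 by edgeR, where 0.0316% of all tested genes were, and DESeq2 also called 0. At an unadjusted p under 0.05 there was 1 gene, JUNB, which was higher with hairpin 2 than with hairpin 1 by 0.21 (SE 0.065, interval 0.06 to 0.36, adjusted p = 0.705). GJA1 had a difference of 0.24 in the same direction (SE 0.074, adjusted p = 0.705). The intervals of JUN (-0.13 to 0.14) and FOSL1 (-0.16 to 0.13) were narrow, and that of EGR3 (-1.24 to 0.31) was wide. Each hairpin against the control coculture gave 2 of 10 genes called lower, JUNB and EGR1, where 3.20% of all tested genes were called lower with hairpin 2 and 4.73% with hairpin 1.

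Cocultures with a Cx43 hairpin were also set against control cells alone, a comparison in which hairpin and astrocytes differ together and which shares its libraries with the others. Here 2 of 10 genes were higher, FOSL2 and JUNB, where 10.8% of all tested genes were called higher, and 2 were lower, FOS and EGR1, where 6.34% were called lower. FOS, the founding member of its family, was at 4.795 and 5.342 CPM with hairpin 2, at 5.43 and 5.26 CPM with hairpin 1 and at 7.385 and 6.901 CPM in control cells alone. The depleted cocultures were all lower, with a log2 fold change of -0.45 (SE 0.092, edgeR, adjusted p = 0.0136). That call ended without control cells alone 1 (adjusted p = 0.0985) or 2 (0.0579) and without hairpin 2 library 1 (0.052). EGR1 was lower by a log2 value of -0.30 (SE 0.074, adjusted p = 0.027) and did not pass without control cells alone 1 or 2 (adjusted p = 0.157 and 0.0691), without either hairpin 2 library (0.0762 and 0.102) or with the replicate block (0.0633).

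FOSL2 was above control cells alone in the depleted cocultures, by 0.39 on the log2 scale (SE 0.090, edgeR, adjusted p = 0.0213). The call ended without control cells alone 1 or 2 (adjusted p = 0.106 and 0.137), without either hairpin 2 library (0.051 and 0.0871) and with the block (0.0516). JUNB was higher by 0.20 (SE 0.057, edgeR, adjusted p = 0.0436), a call that ended in 11 of 15 alternatives, DESeq2 among them (adjusted p = 0.0713). Without a control cells alone, control coculture or hairpin 2 library its adjusted p ran from 0.0626 to 0.214. ATF3 (-0.34, adjusted p = 0.0618) and JUN (-0.17, adjusted p = 0.0507) did not pass. JUN did pass with the RLE factors (adjusted p = 0.0432), with genes under a mean count of 50 left out (0.0321) and without hairpin 1 library 1 (0.0444).

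The genes nearest in pattern to JUNB over the 8 libraries, by the root mean square difference of centred log2 CPM, were the mitochondrial iron transporter gene SLC25A28 (0.053), CEBPD (0.060) and GABARAPL1 (0.060). SLC25A28 averaged 101 CPM with hairpin 2, 91.5 CPM with hairpin 1, 138 CPM in control cocultures and 90 CPM in control cells alone. CEBPD, a bZIP factor of the acute-phase response, averaged 24.4 CPM with hairpin 2, 21.2 CPM with hairpin 1, 30.9 CPM in control cocultures and 18.5 CPM in control cells alone. GABARAPL1, an autophagy gene, averaged 35.0 CPM with hairpin 2, 31.1 CPM with hairpin 1, 50.7 CPM in control cocultures and 29.1 CPM in control cells alone. The nearest genes to FOSB were CNTLN (0.061), ANKDD1A (0.081) and SEMA6C (0.087), all at 3.88 CPM or less in every group.

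A list of 28 other early-response genes, which holds EGR2 and EGR4 of the EGR family, gave a wider view of the same class. All 28 were tested, and 15 rose in the control coculture against control cells alone and 0 fell, where 8.74% of all tested genes rose and 2.93% fell (median log2 fold change 0.33; 1 was lower at an unadjusted p under 0.05, and 0 by DESeq2). The MAP kinase phosphatase DUSP1 averaged 209 CPM in control cocultures and 109 CPM in control cells alone (0.94, SE 0.063, edgeR, adjusted p = 2.7e-05). The RNA-decay factor ZFP36 averaged 58.2 CPM in control cocultures and 29.5 CPM in control cells alone (0.98, SE 0.081, adjusted p = 9.93e-05). MCL1, an anti-apoptotic BCL2 relative, rose by 0.81 (SE 0.062, adjusted p = 5.98e-05) and the antiproliferative gene BTG2 by 1.18 (SE 0.090, adjusted p = 6.17e-05). MYC rose by 0.47 and IER3 by 0.81. The calls of these 6 genes, those with the smallest p of the list, held in every alternative.

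Over both hairpins against the control coculture, 12 of the 28 early genes fell and 2 rose (median -0.22), where 5.85% of all tested genes fell and 3.37% rose. EGR2 (0.42 in the control coculture, -0.24 over both hairpins) and EGR4 (-0.61 and 0.16) passed in neither comparison. These differences rested on few reads, 23 to 35 per library for EGR2 and 14 to 42 for EGR4. DUSP1 averaged 115 CPM with a Cx43 hairpin and 209 CPM in control cocultures (-0.86, SE 0.053, edgeR, adjusted p = 1.6e-05). DUSP5, a nuclear phosphatase of ERK, averaged 312 CPM with a hairpin and 567 CPM in control cocultures (-0.86, SE 0.057, adjusted p = 2.9e-05). ZFP36 (-0.66), the orphan receptor gene NR4A2 (-0.92) and MYC (-0.37) also fell, and these 5 calls held in every alternative. The call of CYR61, a matricellular protein, at -0.48 ended without control coculture 2 (adjusted p = 0.0673). KLF4 (0.32, adjusted p = 0.00919) and KLF10 (0.27, adjusted p = 0.0227) rose, and were named after their values were seen. BTG2 had a log2 difference of -0.03 (adjusted p = 0.848). The total of 14 called genes was 7 without control coculture 1, 5 without control coculture 2, 9 without hairpin 2 library 1 and 7 without hairpin 2 library 2, and in these fits 7, 5, 8 and 7 of them were lower.

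**Figure D4:**
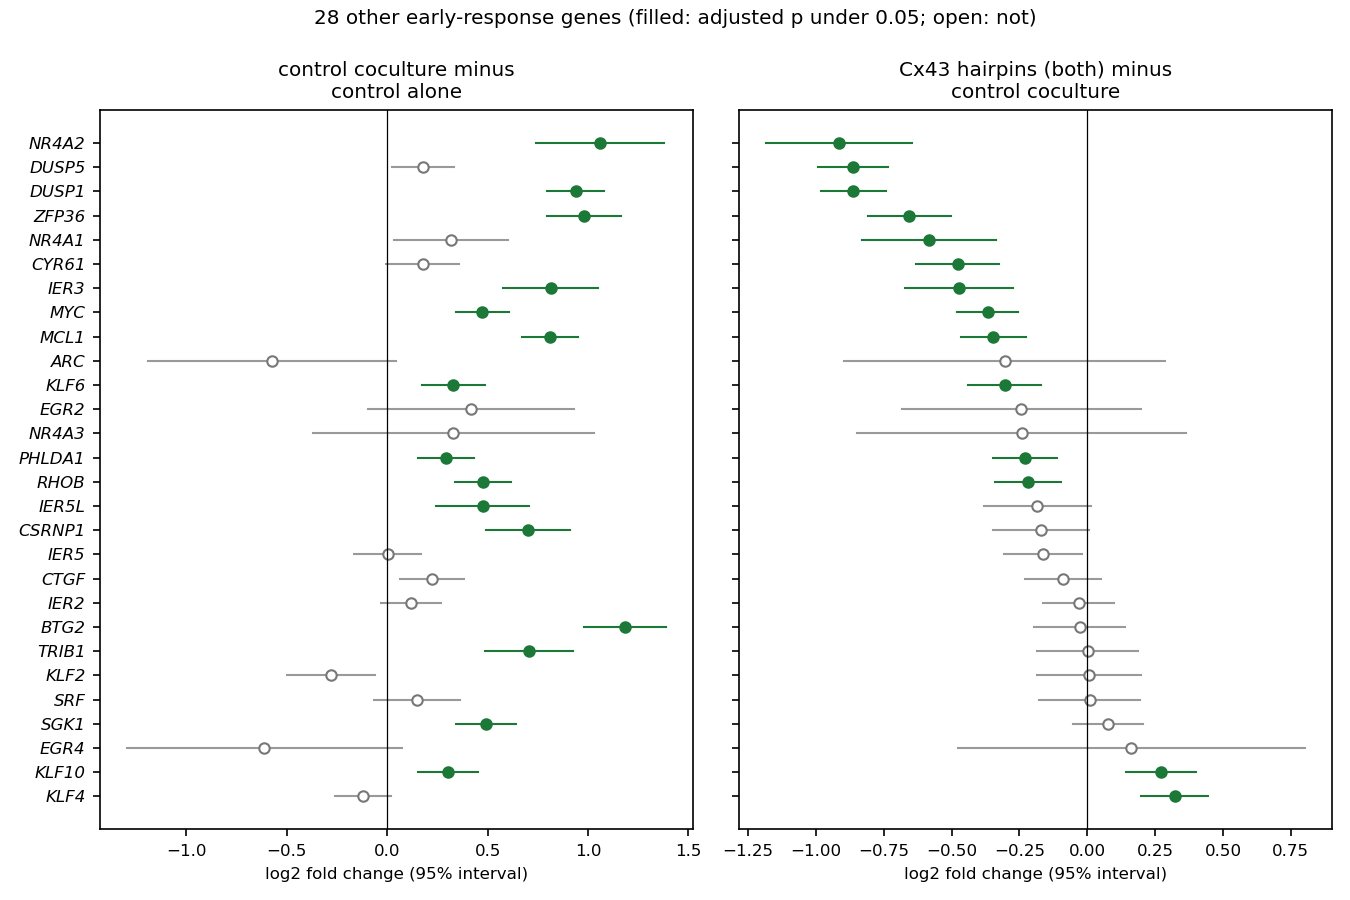
Log2 fold change with its 95% interval for 28 other early-response genes, in control cocultures against control cells alone (left) and with both Cx43 hairpins against control cocultures (right), ordered by the values on the right. Filled points have an adjusted p under 0.05: 15 are higher on the left, and 12 are lower and 2 higher on the right.

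Among 22 other bZIP factors, which can pair with FOS, JUN or ATF proteins or with each other, 5 rose in the control coculture and 0 fell, where 8.74% of all tested genes rose and 2.93% fell (1 was lower at an unadjusted p under 0.05, and 0 by DESeq2). BATF2, an interferon-inducible partner of JUN proteins, averaged 12 CPM in control cocultures and 1.15 CPM in control cells alone (3.39, SE 0.16, edgeR, adjusted p = 2.92e-06). CEBPB (0.72) and CEBPD (0.74), activators of acute-phase and cytokine genes, rose in every alternative. MAF (1.28) and MAFF (0.26) lost their calls in 3 and in 12 alternatives, and the count was 3 without control cells alone 2, control coculture 1 or control coculture 2. Over both hairpins 5 fell and 1 rose, where 5.85% of all tested genes fell and 3.37% rose. BATF2 averaged 1.74 CPM with a Cx43 hairpin and 12 CPM in control cocultures (-2.80, SE 0.12, adjusted p = 1.8e-06). JDP2, a repressor that pairs with JUN, rose by 0.43 (adjusted p = 0.00662). CEBPD (-0.44), MAFF (-0.40), MAFK (-0.36) and CEBPB (-0.23) fell. The calls of JDP2, CEBPD and MAFF held in 14 of 15 alternatives, and that of MAFK in 10. MAFK did not pass with the replicate number as a block (edgeR, adjusted p = 0.0779). Without control coculture 2 the count was 2, both lower, and CEBPB lost its call in 12 alternatives.

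Factors that act on the early-gene promoters, and the kinases above them, were read next. Of 9 genes for serum response factor, its ELK and MKL partners, FHL2 and the EGR1 corepressors NAB1 and NAB2, 2 rose in the control coculture, ELK3 (0.39, edgeR, adjusted p = 0.00817) and NAB1 (0.31, adjusted p = 0.0173), where 8.74% of all tested genes rose. None did so without control cells alone 1 or control coculture 1, and 1 did without control coculture 2. Over both hairpins 0 of 9 were called by edgeR, with 2 higher and 1 lower at an unadjusted p under 0.05, and 1 higher by DESeq2. Of 30 genes of the MAP kinase cascades, 4 rose in the control coculture (MAPK13 0.39, MAP2K6 1.38, MKNK2 0.40 and MAPK3 0.29), where 8.74% of all tested genes rose, and 0 fell (1 at an unadjusted p under 0.05, and 0 by DESeq2). That count was 0 without either library of control cells alone, 2 without either control coculture and 7, with 6 higher, without either hairpin 1 library. Over both hairpins MAPK3, which encodes ERK1, was the 1 gene of 30 that fell (-0.36, adjusted p = 0.00531), where 5.85% of all tested genes fell, and it did not pass without control coculture 2 (adjusted p = 0.0701). Shares this near to, or under, those of all tested genes are not a result about the cascades.

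Genes with well-known AP-1 sites formed another list, and AP-1 activity on them was not measured. Of 19 tested among 20 listed, 6 rose in the control coculture and 0 fell, where 8.74% of all tested genes rose and 2.93% fell (median 0.27; 0 were lower at an unadjusted p under 0.05 or by DESeq2). The cytokine genes IL6 (1.55, SE 0.14), IL8 (1.46, SE 0.13), CSF2 (1.24, SE 0.16) and LIF (1.04, SE 0.071) rose, as did the protease gene PLAU (0.49) and the angiogenic factor gene VEGFA (0.43), and these calls held in every alternative. Over both hairpins 5 fell and 0 rose, where 5.85% of all tested genes fell and 3.37% rose (median -0.21; 1 was higher at an unadjusted p under 0.05, and 0 by DESeq2). With hairpin 1 alone 7 were called lower (median -0.46), where 4.73% of all tested genes were. With hairpin 2 alone 3 were called lower (median -0.10), where 3.20% of all were. Between the hairpins 0 were called. At an unadjusted p under 0.05, 8 were higher with hairpin 2 and 0 lower, but the share of all tested genes at that threshold was not counted. These 8 are therefore not a result about the list. IL8 averaged 57.9 CPM with a Cx43 hairpin and 112 CPM in control cocultures (-0.97, SE 0.11, edgeR, adjusted p = 0.00129), and CSF2 averaged 1.28 CPM with a hairpin and 2.72 CPM in control cocultures (-1.14, SE 0.14, adjusted p = 0.00171). SPP1 (-0.95), IL6 (-0.64) and IL11 (-0.32) also fell, with 3 genes of the list still called without control coculture 1 or 2. LIF (-0.22, adjusted p = 0.0546), PLAU (0.03, adjusted p = 0.812) and VEGFA (0.14, adjusted p = 0.133) did not pass.

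Genes of the ATF4 and unfolded-protein pathways, which can induce ATF3, were called mostly higher over both hairpins. There 5 of 10 rose and 1 fell, where 3.37% of all tested genes rose and 5.85% fell. The pseudokinase gene TRIB3 (0.72, SE 0.055, edgeR, adjusted p = 7.95e-05), the glutathione-degrading enzyme gene CHAC1 (0.63) and SESN2 (0.58) rose in every alternative. ASNS (0.44) did not pass without control coculture 2 (adjusted p = 0.0605), and XBP1 (0.33) did not without control coculture 1 or 2 or hairpin 2 library 2 (0.075, 0.0819 and 0.0564). The endoplasmic reticulum chaperone gene HSPA5 fell by 0.73 on the log2 scale (SE 0.061, adjusted p = 0.000156), and ATF4 itself was not called (0.03, adjusted p = 0.879). In the control coculture against control cells alone, 2 of the 10 rose (DDIT4 0.58, HSPA5 0.39) and 4 fell (PPP1R15A -0.36, ASNS -0.38, TRIB3 -0.27 and CHAC1 -0.36), where 8.74% of all tested genes rose and 2.93% fell. The total of 6 was 3 without control cells alone 1, 1 without control cells alone 2, and 2 without control coculture 1 or 2.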

How the data were processed

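The 10 genes, the gene lists and the tests were chosen with earlier results of these data known. The deposited values are whole-number counts per gene, although the table's name calls them normalized; TopHat2, HTSeq, DESeq2 and hg19 are named per the submitters' processing notes, and which annotation, mode and strand option the counting used is not given in the sources used here. Libraries were made with the TruSeq RNA v2 kit, per the labels' protocols. HTSeq counter rows were left out; reads with several alignments took 14.2% to 26.1% of a library's total, highest in control coculture 1.

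The test was edgeR's quasi-likelihood test (edgeR 4.0.16, R 4.3.3) with TMM factors (0.975 to 1.03), a mean count of at least 10 (15806 genes), 4 groups in 1 fit of 8 libraries, and Benjamini-Hochberg adjustment over all tested genes at 0.05. The biological coefficient of variation was 7.66%, and the fit had 4 residual degrees of freedom. Counts at an unadjusted p under 0.05 stand without the share of all tested genes, which was not counted, and are descriptions only. P-values rest on 2 libraries a group, called independent by the series design, and measure only the spread between these samples. The fit shares its estimate of spread over the 4 groups, but replicates differed unequally. Their chi-square per degree of freedom was 4.26 with hairpin 2, 32.9 with hairpin 1, 22.3 in control cocultures and 13.7 in control cells alone. At this depth 3 counts equal 0.0624 to 0.0805 CPM, for counting error only. The alternatives were DESeq2 1.42.0, RLE and upper-quartile factors, other count filters, a fit to the compared groups, a replicate block and leaving out each library. Where a library is left out, its partner is assumed to vary like the other groups. Exon lengths came from GENCODE 29 and promoters from RefSeq GRCh38.p14. Named genes were the 10 genes and GJA1, up to 6 genes of smallest p per list, and for genes whose group means ranged over at least 0.5 (log2), the 3 nearest patterns, which for EGR3 are not reported here. The FOSL1 pseudogene FOSL1P1 had 1 to 6 reads per library.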

Additional observations from a re-analysis of the deposited data

How the results depend on the processing

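Against 1844 called genes in control coculture minus control alone, 1457 over both hairpins, 1236 with hairpin 1, 658 with hairpin 2, 5 between the hairpins and 2709 in both hairpins minus control alone, the alternatives gave other counts. Deviations of same-numbered libraries correlated at -0.385 to 0.199 over genes, which shows no common pairing by replicate number but cannot exclude one. With the replicate number as a block, 1 of the 10 genes was called in control coculture minus control alone, with hairpin 1, with hairpin 2 and in both hairpins minus control alone, and in these comparisons 1160, 446, 319 and 1502 genes were called among all tested; over both hairpins against control coculture the block left 700 genes, and between the hairpins 0. Without a count filter the counts of all called genes were 2805 (control coculture minus control alone), 2269 (hairpin 1), 1191 (hairpin 2), 304 (between hairpins) and 4117 (both hairpins minus control alone). A fit to the compared groups only gave 1 of the 10 genes and 233 of all genes with hairpin 1, and 2 genes between hairpins, where DESeq2 gave 18 and upper-quartile factors or a mean count of at least 50 gave 3 each. Leaving out 1 library, the members called ran from 1 to 3 in control coculture minus control alone, over both hairpins and with hairpin 1, from 0 to 3 with hairpin 2, were 0 in every such fit between hairpins, and ran from 0 to 6 in both hairpins minus control alone. All genes called ran from 738 to 2582, from 343 to 2314, from 281 to 2405, from 150 to 1101, from 0 to 3 and from 531 to 4717 in the same order. Differences near 0 changed sign. For JUN this was -0.0051 between hairpins with upper-quartile factors, and -0.0003 with RLE factors, -0.0038 without a filter and -0.0015 with the compared groups only in control coculture minus control alone. Leaving out 1 library, log2 differences that crossed 0 ran as follows: ATF3 from -0.1999 to 0.1798 between hairpins, EGR3 from -0.3005 to 0.6776 in control coculture minus control alone, from -0.2860 to 0.7017 over both hairpins, from -0.0565 to 0.9355 with hairpin 1 and from -0.5155 to 0.4679 with hairpin 2, FOSL1 from -0.0497 to 0.0171 between hairpins, FOSL2 from -0.2683 to 0.0089 between hairpins, from -0.1018 to 0.0766 over both hairpins, from -0.0955 to 0.1816 with hairpin 1 and from -0.1628 to 0.0108 with hairpin 2, JUN from -0.0175 to 0.0235 between hairpins and from -0.0043 to 0.0109 in control coculture minus control alone, JUND from -0.2065 to 0.0472 between hairpins and from -0.2184 to 0.0353 with hairpin 1. The cause of these shifts was not tested. EGR3 rested on 11 to 26 reads per library, and the part of depth in its shifts was not tested.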
